A study of Mus musculus with 32 samples.

Results

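Male and female germ cells of the same fetal age were compared here for the genes of metabolism, RNA biology, cell adhesion and signalling. The groups were the 3 G1R Oil F arrays, of oocytes, and the 3 G1R Oil M arrays, of prospermatogonia, chosen by their sample titles from the 32 arrays of the series. All cells came from FVBxOG2 fetuses at 17.5 dpc, whose mothers were given the corn oil vehicle daily from 12.5 dpc on as controls for endocrine-disrupting chemicals. In the OG2 line the Oct4 promoter drives EGFP, and EGFP-positive cells were sorted from the fetal gonads, so both groups carry this transgene and both were selected by its signal. The labels call every sample primordial germ cells, and their treatment text names prospermatogonia for the female samples as well, so the sex was taken from the titles. They do not say whether arrays of a group came from separate litters. The p-values therefore measure the spread between arrays within groups, pooled over all 32 arrays of the series, and this spread may be technical.

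Marker genes of each sex were checked against the titles. All 10 measured oocyte markers were higher in the oocytes, with a median log2 difference of 3.22. Nobox, a transcription factor of the oocyte, differed by 3.59, and the meiotic chromosome axis gene Sycp3 by 2.97. Of the 7 measured genes of prospermatogonia, 4 were higher in the male cells, led by Dnmt3l, which helps to set new DNA methylation, with a difference of -5.72, and Utf1 with -5.37. Nanos2 was dim in both groups. Piwil2 was lower in oocytes (-0.30) and Tdrd9 was higher (0.28), against the titles. Both had an adjusted p under 0.05 in limma but missed the 1.5-fold limit. Among genes of germ cells of either sex, Ddx4 differed by -0.04 and Mael by 0.00, neither of them called, while Pou5f1, the gene whose promoter drives the EGFP used for sorting, differed by -3.18. Of the 9 genes of this kind 3 were lower in oocytes, the others being Dppa4 (-2.47) and Dnd1 (-1.46), and Tdrd1 was higher (0.69).

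A fetal oocyte at this age is in the prophase of meiosis and starts to store messages and organelles that serve growth after birth. The prospermatogonium, by contrast, has stopped dividing, sits inside a cord of Sertoli cells and resets its DNA methylation. Values below are log2 RMA signals of a probe set per gene. A difference is the oocyte mean minus the prospermatogonia mean (n = 3 per group), with the SE of the limma model. That SE rests on the spread within all 11 groups of the series, so it can differ from the spread of the arrays compared here. A gene was called where its Benjamini-Hochberg adjusted p in limma was under 0.05 and its fold at least 1.5. A signal under 6.89, the level that 95% of olfactory receptor probes stay below, was taken as dim. Where a gene was dim in 1 group, its difference can understate the change. For the genes whose values are given array by array, the groups did not overlap unless it is said.

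Of 19106 autosomal genes tested, 3663 (19.2%) were called higher in oocytes and 3692 (19.3%) higher in prospermatogonia, or 38.5% in either direction. At 2-fold or more the shares were 10.4% and 9.8%. The arrays of the groups did not overlap for 13131 genes (68.7%). With so broad a difference, each list is read against these shares. Among the 14090 genes that were not dim in both groups the shares were 25% and 24.4%, which is the nearer measure for lists with few dim members, such as mitochondrial translation and the spliceosome with 0. Arrays correlated at 0.9848 to 0.9904 within the oocytes, at 0.9889 to 0.9907 within the prospermatogonia and at 0.8984 to 0.9140 between them. The median signal of all probes was 7.306 to 7.345 on the oocyte arrays and 7.472 to 7.484 on the others. Centring each array on its median moved the median difference of all autosomal genes from -0.01 to 0.14 and the calls to 4627 higher in oocytes and 2886 higher in prospermatogonia, so that 61.6% of calls in place of 49.8% were on the oocyte side. In bulk RNA, fewer cells of a type and less RNA per cell cannot be told apart.

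The genes were grouped in 31 lists. Of 393 RNA biology genes, 141 (35.9%) were higher in oocytes and 59 (15.0%) lower. Adhesion went the opposite way, with 19 of 247 genes (7.69%) higher in oocytes and 96 (38.9%) lower. Signalling genes followed adhesion less steeply, with 81 of 528 (15.3%) higher and 176 (33.3%) lower. The 390 metabolic genes were divided, 120 higher and 99 lower, and the division ran between pathways.

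**Figure D1:**
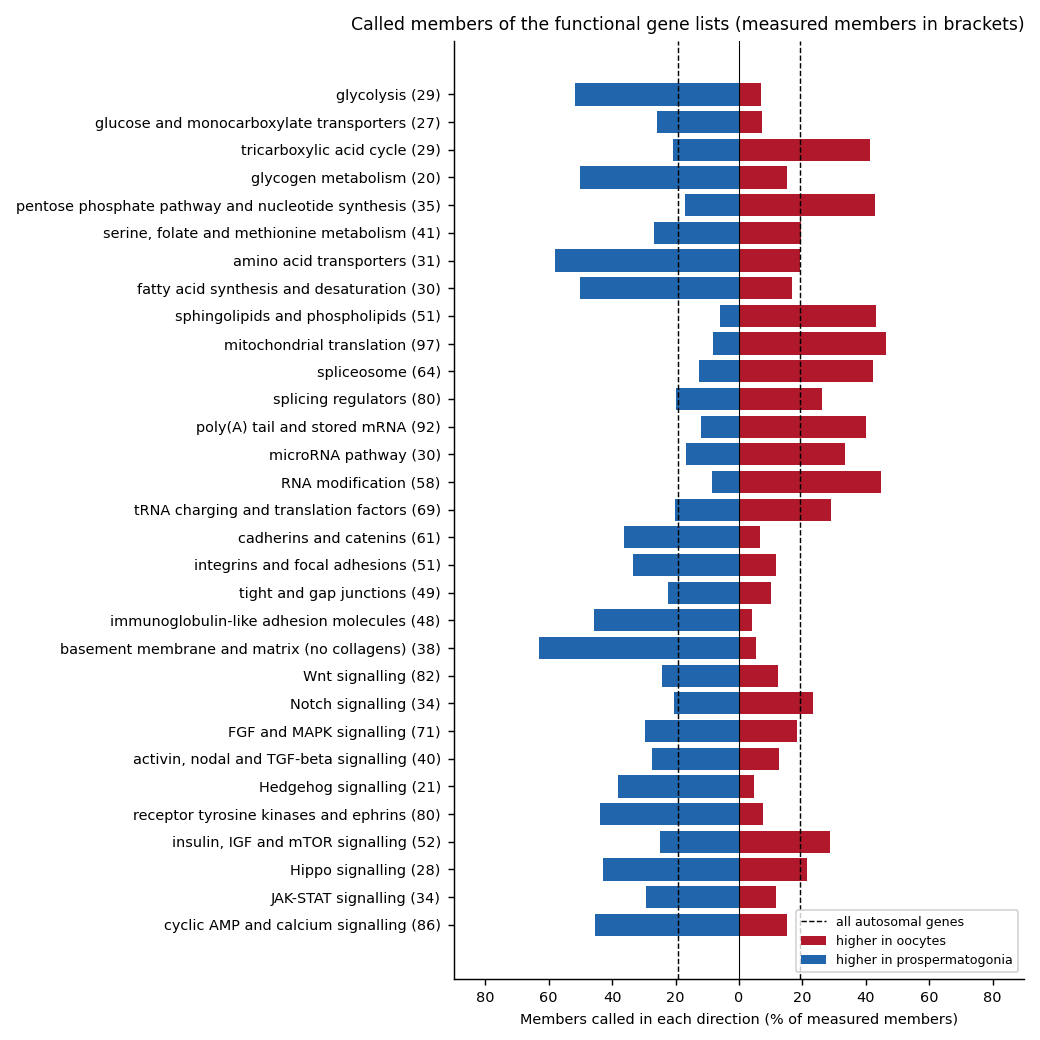
Share of the measured members of each gene list that were called higher in oocytes (red, to the right) or in prospermatogonia (blue, to the left), in percent. Dashed lines mark the shares over all 19106 autosomal genes, 19.2% and 19.3%. Mitochondrial translation, RNA modification and membrane lipids reach far past the line on the oocyte side, and matrix, glycolysis, amino acid transporters and calcium signalling on the other.

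Genes of glycolysis, which splits glucose into pyruvate in the cytosol, were more often lower than higher in the oocytes. Of 29 measured genes of the enzymes and their regulators, 15 were lower and 2 higher, with a median difference of -0.70. Genes of glucose entry moved alike, since 5 of 13 glucose carriers were lower and 0 higher. Slc2a3, a high-affinity glucose carrier, measured 6.95, 7.28 and 7.28 in the oocytes and 10.62, 10.61 and 10.51 in the prospermatogonia. The groups lay far apart, with a difference of -3.41 ± 0.10 and an adjusted p of 5.15e-19 in limma. Slc2a1, the common carrier, differed by -1.21 ± 0.12. Aldolase A (Aldoa), which cleaves the phosphorylated hexose, measured 9.17, 9.13 and 9.35 against 11.66, 11.43 and 11.62, a difference of -2.36 ± 0.12. Its paralog Aldoc differed by -2.72 ± 0.14, Pgam1, the phosphoglycerate mutase, by -2.14, and Pfkp, the platelet type of the rate-setting phosphofructokinase, by -2.04 ± 0.14. Hk1, which traps glucose in the cell, measured 13.04, 12.92 and 12.72 in oocytes and 12.84, 12.92 and 12.92 in prospermatogonia, and its groups overlapped. Another probe set of Hk1, of lower signal, gave -2.04 (limma, adjusted p = 5.12e-13). Where each probe set lies in the genome was not checked, so the brighter one may not read Hk1 itself. Pkm, the last step, differed by -0.58, just under the fold required, and by -0.24 on another probe set. Retrocopies of glycolytic genes are common in the mouse genome, and reads of near-identical copies by the probe sets of Aldoa, Ldha and Pgam1 make these values uncertain. The same limit holds for genes below with several probe sets. Among them are Ldhb and Suclg2, whose probe sets gave the same direction.

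At the branch where pyruvate becomes lactate or enters the mitochondrion, forms of the same enzyme moved in opposite directions. Ldha, the muscle form of lactate dehydrogenase that favours making lactate, measured 8.58, 8.70 and 8.51 in oocytes and 10.79, 11.09 and 10.94 in prospermatogonia, a difference of -2.34 ± 0.11. Ldhb, the heart form that favours making pyruvate, measured 10.25, 8.91 and 9.58 against 7.74, 7.64 and 7.60, a difference of 1.92 ± 0.29. The oocyte arrays spread widely for Ldhb yet all lay above the male ones, and another probe set of the gene gave 1.52. Ldhc, the form known from male germ cells, differed by -1.28 ± 0.16. Among the kinases that switch off pyruvate dehydrogenase, Pdk1 was higher in oocytes (1.63 ± 0.11) whereas Pdk2 (-1.18 ± 0.12) and Pdk4 (-1.10 ± 0.13) were lower. Pdp2, a phosphatase that switches it on, differed by -2.19 ± 0.13. Mpc1, which carries pyruvate across the inner membrane, was called higher in oocytes with 10.27, 10.60 and 10.85 against 9.33, 10.07 and 10.10, a call that was lost with loess scaling (0.53) and without the first prospermatogonia array (0.49).

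The tricarboxylic acid cycle, which burns the acetyl group in mitochondria, had 12 of 29 genes higher in oocytes and 6 lower (median 0.22). Suclg2, the GTP-forming beta subunit of succinyl-CoA ligase, measured 10.23, 9.97 and 10.12 in oocytes and 7.19, 7.10 and 7.41 in prospermatogonia. That is a difference of 2.87 ± 0.11 (limma, adjusted p = 4.54e-17), and another probe set gave 2.68. Sucla2, the ATP-forming beta subunit, was also higher (1.04 ± 0.12), and Suclg1, the alpha subunit that both share, was lower (-0.71 ± 0.10). Idh3a, the catalytic subunit of the NAD-dependent isocitrate dehydrogenase of the cycle, measured 10.70, 10.50 and 10.53 against 8.48, 8.46 and 8.37. Its cytosolic NADP-dependent counterpart Idh1 went the other way, with 8.08, 8.07 and 7.78 against 9.59, 9.75 and 9.50. Dld, the dihydrolipoamide dehydrogenase that serves the pyruvate and the oxoglutarate complexes, differed by 2.00 ± 0.13 and Dlat, the acetyltransferase core of the former, by 0.72 ± 0.08, which loess scaling brought under the fold required (0.51). Citrate synthase (Cs) measured 10.88 to 10.97 in oocytes and 10.88 to 10.99 in prospermatogonia, with no call. Acly, which turns exported citrate into cytosolic acetyl-CoA, was lower in oocytes (-1.03 ± 0.08).

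**Figure D2:**
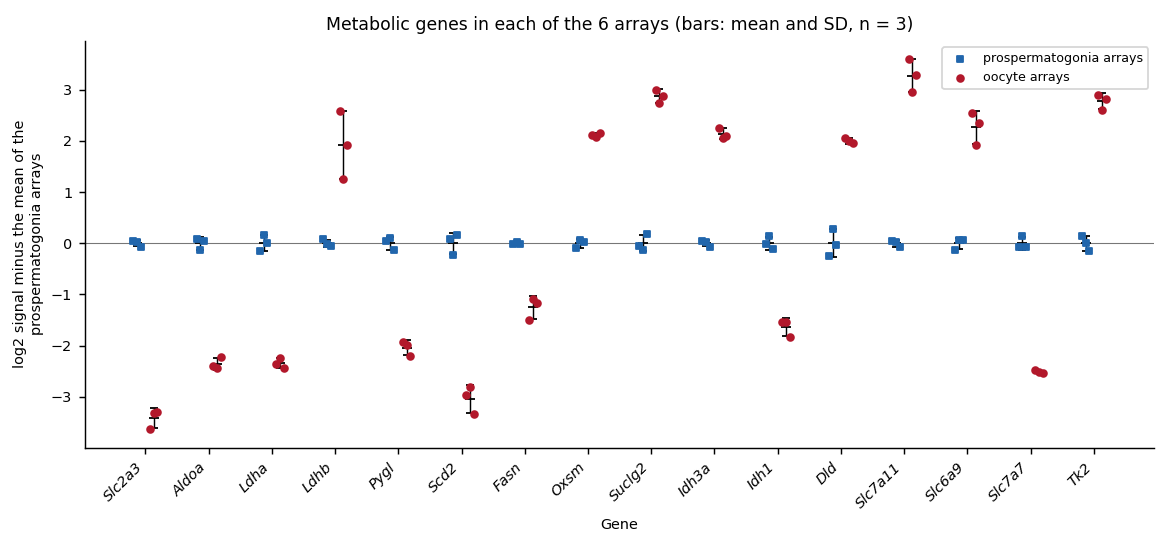
Signals of 16 metabolic genes in each of the 3 oocyte arrays (red circles) and 3 prospermatogonia arrays (blue squares), as log2 signal minus the mean of the prospermatogonia arrays of that gene, with mean and SD. Slc2a3, Aldoa, Ldha, Scd2 and Fasn sit below 0 in every oocyte array, whereas Ldhb, Oxsm, Suclg2, Idh3a and Slc7a11 sit above, and Ldhb spreads the most.

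Of 13 fatty acid synthesis genes 3 were higher in oocytes, 5 were lower and 5 were not called. Mammalian cells make palmitate in the cytosol and a short chain for lipoic acid in mitochondria, the cofactor that the dehydrogenase complexes with Dld need. Among the lower ones were enzymes of the cytosolic route. Fasn, the fatty acid synthase, measured 9.69, 10.09 and 10.02 against 11.17, 11.21 and 11.17 (-1.25 ± 0.11), and Acaca, the acetyl-CoA carboxylase, differed by -0.96 ± 0.09. The higher ones were 3 enzymes of the mitochondrial route. Oxsm, the ketoacyl synthase, measured 8.62, 8.58 and 8.65 against 6.40, 6.57 and 6.53 (2.12 ± 0.11). Mcat, the malonyl transferase, differed by 1.49 ± 0.11 and Mecr, the enoyl reductase, by 1.29 ± 0.19. Desaturases and elongases, which finish the cytosolic chains, had 10 of 17 members lower in oocytes and 2 higher, the dehydratases Hacd2 and Hacd3 (median -1.25). The call of Hacd3 was lost with loess scaling (0.41) and without any of 3 single arrays (0.52 to 0.57). Scd2, a stearoyl-CoA desaturase, measured 7.32, 7.48 and 6.95 against 10.36, 10.04 and 10.43 (-3.03 ± 0.26). Fads1, Fads2 and Fads3 of the polyunsaturated pathway differed by -1.86, -2.59 and -2.96. Genes that build membrane lipids from those chains were more often higher. Of 51 sphingolipid and phospholipid genes 22 were higher in oocytes and 3 lower, with Cers2, the synthase of very long chain ceramides, at 1.76 ± 0.10 and Ptdss1, a phosphatidylserine synthase, at 1.57 ± 0.09. Of the acyltransferases that make phosphatidic acid, Agpat1, Agpat2, Agpat3 and Agpat5 were higher and Agpat4 lower.

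Stores and supplies differed as well. All called members of glycogen breakdown, 6 of 7 measured, were lower in oocytes, with Pygl, the liver glycogen phosphorylase, at 6.55, 6.49 and 6.27 against 8.52, 8.58 and 8.34, and the phosphorylase kinase subunit Phkg2 at -1.95 ± 0.10. Synthesis was divided, as glycogen synthase Gys2 was lower (-2.08 ± 0.19) and Ugp2, which makes UDP-glucose, higher (1.41 ± 0.09). Amino acid carriers had 18 of 31 members lower in oocytes and 6 higher, with a median of -0.86. Slc7a5, the large neutral carrier, and Slc3a2, its heavy chain partner, differed by -1.60 ± 0.08 and -1.44 ± 0.08. Slc7a11, which pairs with the same heavy chain to import cystine for glutathione, was the highest of the 31 with 10.26, 9.62 and 9.95 against 6.72, 6.70 and 6.59 (3.27 ± 0.17). Slc6a9, the glycine carrier GlyT1, measured 11.36, 10.73 and 11.16 against 8.69, 8.89 and 8.88. Genes of glycine use moved against it. Gldc (-1.35 ± 0.07) and Gcsh (-1.14 ± 0.17), both of the mitochondrial glycine cleavage system, were lower in oocytes, and 0 of 10 serine and glycine genes were higher. In the methionine cycle Mtr, the methionine synthase, was lower (-1.93 ± 0.10), and Mat2b, the regulatory subunit of the enzyme that makes S-adenosylmethionine, was higher (2.03 ± 0.11).

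Nucleotide synthesis leaned towards the oocyte, with 15 of 35 genes higher and 6 lower. Those furthest apart belong to the supply of deoxynucleotides. Tk2, the mitochondrial thymidine kinase, measured 9.66, 9.36 and 9.58 in oocytes and 6.90, 6.76 and 6.62 in prospermatogonia (2.78 ± 0.11), and Dtymk, the thymidylate kinase, differed by 2.41 ± 0.11. Adss, the common adenylosuccinate synthase, was higher (2.40 ± 0.12) while its muscle form Adssl1 was lower (-0.69 ± 0.12), a call lost with loess scaling (-0.58), with centred arrays (-0.53) and without the second prospermatogonia array (-0.56).

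Mitochondrial translation, which makes the few proteins encoded by mitochondrial DNA, had the largest share on the oocyte side of the 31 lists. Of 97 measured genes 45 were higher in oocytes and 8 lower, with a median of 0.49 that stayed above 0 with loess scaling (0.36) and with centred arrays (0.65). Its 77 ribosomal proteins gave 36 and 5. Mrpl43, of the large subunit, measured 9.91, 10.05 and 9.97 against 7.82, 7.85 and 7.84 (2.14 ± 0.10). Mrpl32 differed by 1.91 ± 0.17. Mrpl23 was an exception of the same size, with 10.37, 9.93 and 10.19 against 12.04, 12.39 and 12.19. Of 3 related genes that carry the name S18, Mrps18c was higher (1.06 ± 0.14) and Mrps18a and Mrps18b were lower (-1.11 and -0.98). Tfam, which packs mitochondrial DNA and starts its transcription, measured 9.23, 8.50 and 8.75 against 6.71, 6.89 and 6.53 (2.11 ± 0.17). Tufm, the mitochondrial elongation factor, was lower in oocytes (-0.97 ± 0.09).

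Promoters of these genes were read for short motifs because the members moved together. In RefSeq windows of GRCm38.p6, from 250 bases before to 50 after the start, the letters CCGGAAGT, a form bound by ETS factors, stood on either strand in 6.14% of 14959 autosomal genes with a window. They stood in 13.2% of the genes called higher in oocytes, 2.48% of those higher in prospermatogonia and 4.98% of the uncalled ones. Among genes with a window, they were present for mitochondrial translation in 9 of 37 called higher in oocytes and 1 of 8 called lower, and for the matrix in 0 of 18 called lower. That 1 of 8 rests on 1 gene. The spliceosome gave 3 of 18 called higher and 2 of 7 called lower. The list of tRNA charging and translation factors gave 2 of 14 and 3 of 12, so neither list followed that lean. Over all windows of a list, called or not, the letters stood in 19.1% for mitochondrial translation and 19.3% for the spliceosome. For tRNA charging and translation factors the share was 21.9%, against 5.53% of the windows of all autosomal genes. Windows of genes higher in oocytes also held more CpG, a median of 22 against 14 for genes higher in prospermatogonia and 15 for all, and the part of CpG content in these shares was not tested. The other motifs searched in the same windows were that of NRF1, CACGTG (E-box), TGACGTCA (CRE), CCAAT and GGGGCGGGG (GC-box) on both strands and TATAAA on the gene's strand, in 1.44%, 8.23%, 2.42%, 37.1%, 16.6% and 7.27% of 18383 windows. The NRF1 motif and TGACGTCA leaned the same way, with 2.55% against 1% and 4.07% against 1.95% of the windows of genes higher in oocytes and in prospermatogonia, so the lean was not particular to CCGGAAGT. CCGGAAGT, in 5.53% of windows, was picked for print after these values were seen. None of these motifs contains another. Shown here in capitals are the matches, as read or as their reverse complement, with up to 50 bases on each side. They come from a called gene in each of the lists of mitochondrial translation, the spliceosome and RNA modification. Each was the gene of highest difference with a match among those considered for print. Not every called gene was considered, so Lsm5 need not be the highest such gene of the spliceosome.
Mrpl43, chr19:45006397-45006504, minus strand: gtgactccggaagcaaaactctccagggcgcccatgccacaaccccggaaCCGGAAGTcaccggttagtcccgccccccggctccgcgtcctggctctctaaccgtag
Lsm5, chr6:56704650-56704733, minus strand: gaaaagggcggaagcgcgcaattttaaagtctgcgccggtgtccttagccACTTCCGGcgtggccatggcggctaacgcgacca
Nsun3, chr16:62786704-62786811, minus strand: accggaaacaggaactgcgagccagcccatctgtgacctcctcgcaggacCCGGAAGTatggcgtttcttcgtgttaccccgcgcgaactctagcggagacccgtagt
Mrpl43 stands first among the mitochondrial ribosomal proteins, and Nsun3, described below, first among the RNA modification genes, whereas Lsm5 differed by only 0.88 ± 0.13. A match is a description of the letters and not a binding site.

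Genes of RNA processing were more often higher in oocytes, but for splicing this depended on the scaling. With loess scaling the spliceosome list gave 13 higher and 13 lower in place of 27 and 8 of 64, and the splicing regulators 11 higher in place of 21 of 80. Introns are removed by small nuclear particles, the U1 and U2 particles marking the ends of the intron and the others joining for catalysis. Of 24 genes of the U1 and U2 particles 10 were higher and 0 lower. Snrpb2, the U2 protein B'', measured 11.57, 11.45 and 11.58 in oocytes against 9.17, 9.61 and 9.49 (2.11 ± 0.12). Snrpd3, of the ring of Sm proteins common to the particles, differed by 1.25 ± 0.08. The later particles gave 17 higher and 8 lower of 40. Lsm3, of the U6 ring, was higher (1.78 ± 0.15), and the exceptions included Dhx38, a helicase that remodels the spliceosome between its catalytic steps, with 7.89, 7.78 and 7.95 against 10.10, 9.87 and 9.65. Cdc40, which acts at the second step, differed by -1.95 ± 0.11. General splicing regulators, the SR proteins and hnRNPs, had 12 of 37 higher and 1 lower, Hnrnpul2 (-0.95 ± 0.11). Srsf5 led them (1.67 ± 0.11).

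Tissue-restricted splicing regulators did not follow. Of 43 measured, 9 were higher in oocytes and 15 lower (median -0.39). Some of their families held called members in both directions. Ptbp2, the neuronal and germline polypyrimidine tract protein that blocks exons, measured 12.31, 12.13 and 12.23 in oocytes and 10.27, 10.08 and 10.27 in prospermatogonia, while Ptbp3 (10.81, 10.87 and 10.88 against 12.35, 12.27 and 12.30) and Ptbp1 (-0.59 ± 0.09) were lower. Another probe set of Ptbp1 gave -0.43, under the fold required. Rbpms2 was higher (2.68 ± 0.10) and its paralog Rbpms lower (-1.19 ± 0.10). Both musashi genes, whose proteins bind messages in stem cells, were lower in oocytes, with Msi1 at -2.96 ± 0.11 and Msi2 at -2.36 ± 0.07. Mbnl2, a muscleblind regulator, measured 7.24, 7.41 and 7.25 against 10.02, 9.86 and 9.94.

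Proteins that store messages and set their poly(A) tails followed the oocyte side. An oocyte keeps many messages silent with short tails until it matures, and CPEB1 is the factor best known for that control. Of 38 genes of storage and cytoplasmic polyadenylation 15 were higher and 4 lower. Cpeb1 measured 11.68, 11.61 and 11.66 in oocytes and 9.05, 8.84 and 8.95 in prospermatogonia (2.70 ± 0.09, limma, adjusted p = 1.74e-18). Cpeb3 was higher too (1.43 ± 0.10), and Cpeb2 was lower with 8.73, 9.02 and 8.85 against 10.63, 10.31 and 10.53. The Y-box proteins, which coat stored messages, split likewise, with the germ cell form Ybx2 at 2.30 ± 0.10, a marker above, Ybx3 at 1.60 ± 0.10 and the ubiquitous Ybx1 at -0.64 ± 0.08, or -0.43 on another probe set. Paip1, which joins the poly(A)-binding protein to initiation factors, differed by 2.62 ± 0.13. Decay genes were also more often higher. Of 54 genes of deadenylation and decay 22 were higher and 7 lower. Tob1, which recruits the deadenylase, measured 10.91, 11.20 and 11.16 against 9.02, 8.89 and 8.87, and Exosc9, of the exosome, differed by 2.05 ± 0.11. Of the proteins that bring AU-rich messages to the deadenylase, Zfp36l2 was higher (1.55 ± 0.11) and Zfp36 lower (-1.52 ± 0.18).

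Enzymes that modify RNA had 26 of 58 members higher in oocytes and 5 lower (median 0.48). Nsun3, which methylates cytosine in the mitochondrial methionine tRNA, measured 10.78, 11.02 and 10.90 against 7.92, 8.32 and 8.16 (2.76 ± 0.13), whereas Nsun7 of the same family measured 5.72, 6.10 and 6.01 against 8.16, 8.31 and 8.20. Mettl1, which makes 7-methylguanosine in tRNA, differed by 2.18 ± 0.13. Of the m6A system, Ythdc2, a reader needed for meiosis, differed by 1.94 ± 0.12 and Cbll1, a subunit of the writer, by 1.49 ± 0.10, but the catalytic subunit Mettl3 was not called (-0.17 ± 0.10). Igf2bp1 was lower (-1.54 ± 0.14) and its paralog Igf2bp3 higher (0.92 ± 0.10). In translation, Eif4a2, a cap-binding complex helicase, measured 11.60, 11.54 and 11.59 against 8.73, 8.81 and 8.60 (2.86 ± 0.12) and Eif4g3, a scaffold of that complex, differed by 2.29 ± 0.10. Aminoacyl-tRNA synthetases gave 6 higher and 6 lower of 21.

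MicroRNAs are cut from hairpins by Drosha and Dicer1 and silence messages through the bases of their seed. Both enzymes were higher in oocytes, Dicer1 with 11.23, 11.17 and 11.13 against 9.88, 9.95 and 10.05 and Drosha with a difference of 0.96 ± 0.07. The effector scaffolds Tnrc6b (-0.97 ± 0.08) and Tnrc6c (-0.89) were lower. The arrays also carry probe sets for 221 autosomal microRNA genes, which read primary transcripts or hairpins and not mature microRNAs. This class was added after its values were seen. Of the 221, 19 were higher in oocytes and 15 lower, fewer than among all genes, and 153 were dim in both groups. In 2 genomic regions several called ones lay together, and mature RefSeq sequences from there (GRCm38.p6) are shown 5' to 3' with the seed, bases 2 to 8, in capitals.
miR-17-5p: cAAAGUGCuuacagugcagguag
miR-20a-5p: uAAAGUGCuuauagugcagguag
miR-18a-5p: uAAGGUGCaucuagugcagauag
miR-19a-3p: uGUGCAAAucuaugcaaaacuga
miR-19b-3p: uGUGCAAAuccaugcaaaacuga
miR-127-3p: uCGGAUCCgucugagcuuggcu
miR-382-5p: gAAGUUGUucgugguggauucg
miR-134-5p: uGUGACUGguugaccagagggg
The first 5 come from a chromosome 14 cluster (chr14:115043671-115044506, plus strand). Here miR-17 and miR-20a share a seed, miR-19a and miR-19b share another, and miR-18a differs. Of its 5 measured genes 4 were higher in oocytes and 0 lower, but 4 of the 5 were dim in both groups and only Mir18 was not. Mir18 measured 7.78, 7.54 and 7.95 in oocytes and 6.24, 5.14 and 5.50 in prospermatogonia (2.13 ± 0.28). Mir19a, dim in both groups, measured 5.89, 5.96 and 6.13 against 4.28, 4.17 and 4.27, and Mir17 was not called. The last 3 sequences come from the imprinted Dlk1-Dio3 region of chromosome 12, where the larger cluster (chr12:109709060-109747960, plus strand) had 8 of 29 measured genes lower in oocytes and 1 higher. Of the 29, 23 were dim in both groups, among them Mir380, Mir329, Mir539 and Mir369 of those lower, so these counts rest mostly on signals near background. Mir382 measured 6.17, 6.86 and 6.61 against 7.59, 8.16 and 8.11, and Mir134 measured 8.22, 8.42 and 8.36 against 9.10, 9.20 and 9.03. In the neighbouring cluster (chr12:109563692-109595388, plus strand) Mir127 measured 6.80, 6.56 and 6.85 against 7.98, 7.94 and 7.99. Mir300, also dim in both groups, was higher in oocytes with 6.59, 6.92 and 7.05 against 5.43, 5.06 and 5.22.

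**Figure D3:**
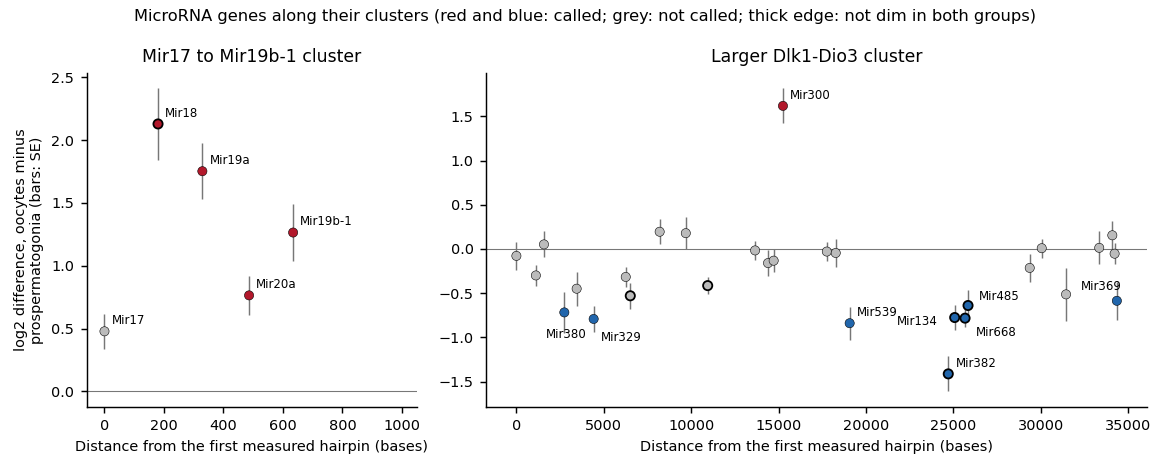
Differences of the measured microRNA genes along both clusters, by distance in bases from the first measured hairpin, with the SE of the model. Red and blue points were called higher in oocytes and in prospermatogonia, and a thick edge marks genes that were not dim in both groups. All 5 points of the chromosome 14 cluster, of which 4 are dim in both groups, lie above 0, and 22 of 29 points of the chromosome 12 cluster lie below it.

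Adhesion genes were lower in the oocytes more often than higher. Markers of some other cells of the gonad, namely endothelial, peritubular and interstitial, Sertoli and fetal Leydig cells, moved the same way. Of all autosomal genes 19.3% were lower in oocytes. Of 10 endothelial markers 7 were lower in oocytes, and their summed linear signal was 1082 to 1238 on the oocyte arrays and 2549 to 2642 on the prospermatogonia arrays, with Kdr and Robo4 dim in both groups. Of 12 peritubular and interstitial markers 7 were lower (1699 to 1835 against 2846 to 3762), with Lum, Tagln and Tcf21 dim. Of 10 Sertoli markers 4 were lower (1585 to 1735 against 3345 to 3982), with Aard and Dhh dim, and of 5 fetal Leydig markers 2 (417 to 473 against 704 to 1195), with Hsd3b1 and Star dim. Granulosa markers gave 2 of 8 lower (25%, 1100 to 1284 against 1565 to 1622, Lgr5 dim). Markers of macrophages and blood gave 1 of 6 (16.7%, 480 to 521 against 551 to 593, with Adgre1, Csf1r, Lyz2 and Ptprc dim). Both shares were near that of all genes. None of these markers of other cells was called higher in oocytes. Nr2f2 (0.54) and Mrc1 (0.41) were higher at an adjusted p under 0.05 in limma but missed the fold required. The part of other cells in the adhesion, matrix and receptor results was not tested.

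The matrix list had the largest share on the prospermatogonia side of the 31 lists, with 24 of 38 genes lower in oocytes and 2 higher, Agrn and Lamc1 (median -0.82), of which Lamc1 lost its call with loess scaling (0.43). None of its members is among those markers, so leaving the markers out does not test the part of other cells here. Postn, periostin, measured 5.73, 5.70 and 5.77 in oocytes and 8.73, 8.88 and 8.67 in prospermatogonia, and was dim in the oocytes. Thbs4, a thrombospondin, measured 7.69, 7.46 and 7.36 against 10.34, 10.52 and 10.41 (-2.92 ± 0.15). Fn1, fibronectin, differed by -1.75 ± 0.11 and Lama1, a laminin chain of early basement membranes, by -1.28 ± 0.10. Sparc, a matrix glycoprotein, differed by -2.15 ± 0.35, with 10.46, 9.79 and 10.53 in the prospermatogonia, the second array apart from the others.

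Immunoglobulin-like surface proteins gave 22 of 48 lower and 2 higher. Dscaml1, a homophilic cell recognition molecule, measured 6.37, 6.70 and 6.62 in oocytes and 10.49, 10.41 and 10.36 in prospermatogonia (-3.85 ± 0.09, limma, adjusted p = 1.23e-20). Mcam, the melanoma cell adhesion molecule, differed by -3.01 ± 0.11. Pecam1 and Cd34, which endothelial cells also carry, differed by -1.98 and -1.74. Afdn, afadin, which ties nectins to actin, was higher in oocytes (1.75 ± 0.09) while Nectin1 was lower (-0.82). Cd81, a tetraspanin, measured 10.07, 10.35 and 10.29 against 9.31, 9.15 and 9.82 (0.81 ± 0.30), but the difference was -0.41 in fetuses exposed to bisphenol A. Its call was also lost with loess scaling (0.58) and without any of 4 single arrays (0.67 to 0.78).

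Cadherins, which bind like cells together, gave 22 of 61 lower and 4 higher. Those higher were classical members of epithelia, Cdh3 at 9.17, 10.01 and 9.72 against 8.16, 7.71 and 8.12, Cdh6 at 1.07 ± 0.11 and Cdh1, E-cadherin, at 0.96 ± 0.09, with the catenin relative Pkp4, whose call was lost with loess scaling (0.58). Among 26 desmosomal, proto- and giant cadherins and calsyntenins 10 were lower and 0 higher, with Clstn2 at 6.65, 7.02 and 6.73 against 9.71, 9.59 and 9.61. Integrins and their cytoplasmic partners gave 17 lower and 6 higher of 51. The partner Lims1 was higher (1.79 ± 0.13) and its paralog Lims2 lower (-0.87 ± 0.09), and of the actin-bundling alpha-actinins Actn4 was higher and Actn1, Actn2 and Actn3 were lower. Tight and gap junction genes, with 11 lower and 5 higher of 49, came nearest to the shares of all genes. Gja4, the connexin by which oocytes couple to follicle cells, measured 9.25, 8.83 and 9.15 against 7.74, 7.97 and 7.81. Cldn18, a claudin, differed by -2.30 ± 0.13 and F11r, a junctional adhesion molecule, by -2.12 ± 0.10, whereas its relative Jam3 was higher (1.03 ± 0.15).

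**Figure D4:**
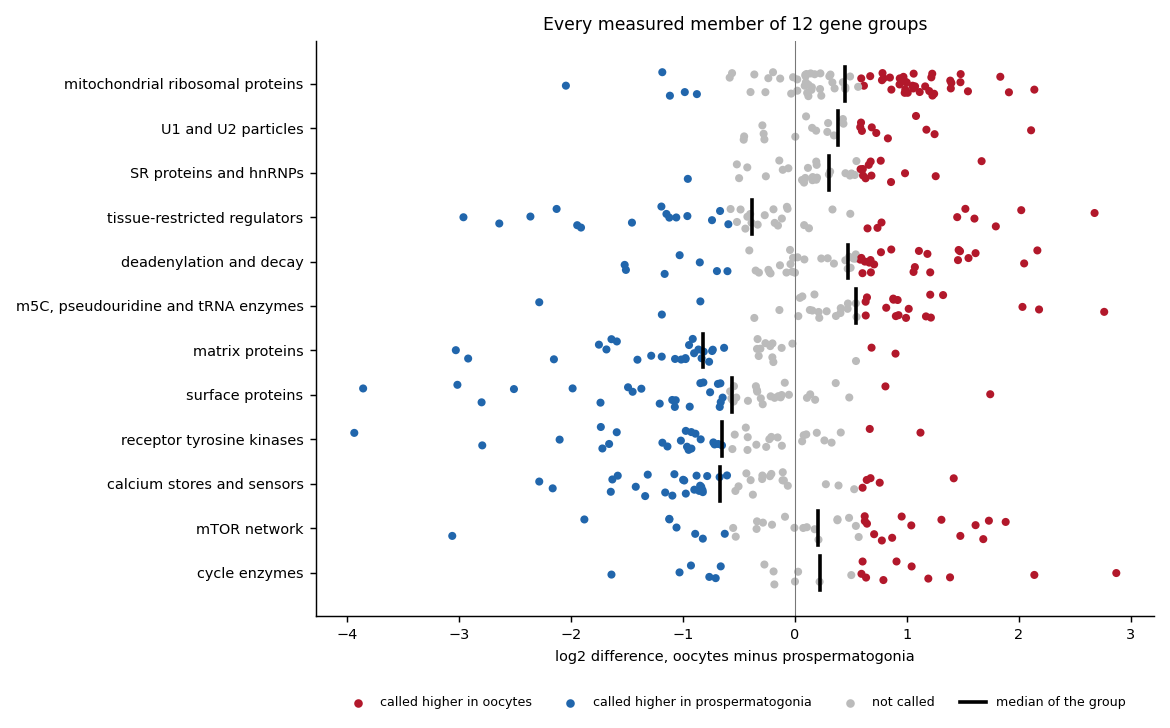
Difference of every measured member of 12 gene groups, oocytes minus prospermatogonia on the log2 scale, with called members in red or blue, uncalled ones in grey and the group's median as a black bar. Medians of the mitochondrial ribosomal proteins (0.45) and of the m5C, pseudouridine and tRNA enzymes (0.55) lie right of 0, and those of matrix proteins (-0.82) and receptor tyrosine kinases (-0.65) left of it.

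Signalling lists differed widely in their shares. Of 41 receptor tyrosine kinases 21 were lower and 2 higher. Met, the receptor of hepatocyte growth factor, measured 5.68, 5.66 and 5.68 in oocytes, which is dim, and 9.63, 9.58 and 9.60 in prospermatogonia (-3.93 ± 0.10, limma, adjusted p = 1.2e-20). Ddr1, a collagen receptor, measured 7.04, 7.25 and 7.40 against 10.16, 10.08 and 9.82. Ret, the receptor of glial cell line-derived neurotrophic factor, differed by -1.72 ± 0.09 and its coreceptors Gfra1, Gfra2 and Gfra3 by -0.71, -1.10 and -1.74, but the coreceptor Gfra4 was higher with 9.25, 9.39 and 9.55 against 7.70, 7.77 and 7.78. Of the TAM receptors, which take up dying cells, Tyro3 was higher (1.12 ± 0.12) and Axl and Mertk lower. Ephrins, the membrane ligands of Eph receptors, were lower for Efna2, Efna3, Efna4, Efna5 and Efnb3 and higher for Efna1 and Efnb2. Without the 7 members that are also markers of other cells, 30 of 73 genes of the whole receptor and ephrin list were lower and 6 higher. This does not take out other genes of those cells, whose part was not tested.

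Ligands of the TGF-beta family and their binding proteins had 7 of 21 members lower in oocytes and 0 higher, while their receptors and transducers had 5 of 19 higher and 4 lower. Tgfb1 measured 7.35, 7.32 and 7.42 in oocytes and 10.20, 10.00 and 10.06 in prospermatogonia, and Fstl1, a follistatin relative, 6.92, 6.79 and 6.93 against 9.88, 9.92 and 9.92. Against them stood the receptor Tgfbr1 with 10.44, 10.28 and 10.34 against 8.74, 8.65 and 8.58 (1.70 ± 0.07) and Zfyve9, which presents Smads to it (1.86 ± 0.11).

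Wnt genes gave 20 of 82 lower and 10 higher, close to all genes on the side of the prospermatogonia, and the list's median of -0.13 turned to 0.02 with centred arrays. Sfrp1, a secreted inhibitor, measured 6.24, 6.32 and 6.27, dim, against 9.65, 9.73 and 9.86. Of the R-spondins, which enhance Wnt signals, Rspo4 was lower (-2.81 ± 0.17) and Rspo2 higher (0.92 ± 0.14), and their receptor Lgr4 was higher (1.67 ± 0.14). Lef1, a nuclear effector, differed by -2.05 ± 0.12. Hedgehog genes gave 8 of 21 lower, among them the receptor Ptch1 (-0.75) and the effector Gli3 (-1.25 ± 0.12), and 1 higher, the transducer Smo (0.71 ± 0.13), a call lost with loess scaling (0.47). Notch genes were even, with 8 of 34 higher and 7 lower and a median of -0.11 that centring turned to 0.04. The ligand Jag2 measured 11.05, 10.79 and 11.07 against 8.76, 8.57 and 8.67.

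Within the MAP kinases the forms parted again. Of the JNK genes Mapk9 measured 10.45, 10.69 and 10.53 in oocytes and 8.35, 8.23 and 8.30 in prospermatogonia and Mapk8 differed by 1.02, whereas Mapk10, the neuronal form, measured 8.86, 8.77 and 8.85 against 10.09, 10.30 and 10.28. A dim probe set of Mapk10 gave -0.00. Of the p38 genes Mapk14 was higher (1.42) and Mapk11 and Mapk12 were lower (-1.28 and -1.11). Dusp7, a phosphatase of ERK, measured 11.85, 11.71 and 11.76 against 8.78, 8.71 and 8.82 (3.00 ± 0.08), and Dusp1, an immediate early phosphatase, measured 7.41, 7.85 and 7.56 against 10.02, 9.72 and 10.06. The ERK kinase Map2k1 was higher (1.69 ± 0.12).

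The mTOR network, which couples amino acid supply to growth, had 14 of 39 members higher in oocytes and 8 lower. Several genes that act on mTOR at the lysosome were among the higher ones. Rheb, its activator there, measured 10.83, 10.49 and 10.58 against 8.45, 8.84 and 8.97, and the Rag GTPases Rraga and Rragc differed by 1.48 and 1.73 and their anchors Lamtor2, Lamtor3 and Lamtor5 by 0.87, 1.61 and 1.04. The anchors Lamtor1 (-0.00 ± 0.12) and Lamtor4 (-0.34 ± 0.11) were not called. Rragd, the alternative to Rragc, went the other way with 6.15, 6.89 and 6.53 against 9.70, 9.48 and 9.56 (-3.06 ± 0.15). The kinase Mtor itself was lower (-1.06 ± 0.08), and so were the energy sensor subunit Prkaa2 (-1.88 ± 0.11) and the kinase Stk11 upstream of it (-1.12). The insulin receptor Insr was higher (1.20 ± 0.10) while the binding proteins Igfbp2, Igfbp4 and Igfbp7 were lower.

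Hippo genes, 12 of 28 lower and 6 higher, moved both ways. In the kinase arm Lats1 was higher in oocytes (1.26 ± 0.09), as were its partners Sav1 (0.77) and Mob1a (0.72), whereas Lats2 (0.13) and Stk4 (-0.00) were not called and the upstream regulator Nf2 was lower (-1.03). Mob1b measured 10.55, 10.54 and 10.51 against 8.80, 8.80 and 8.91. Of the nuclear effectors and known targets Wwtr1 (-0.96), Tead2 (-1.30), Vgll3 (-1.65 ± 0.12), Ccn1 (-0.78) and Ccn2 (-0.97) were lower, while Yap1 (0.06 ± 0.11) and Tead1 (0.06) were not called. Of the JAK-STAT genes, 10 of 34 lower and 4 higher, Lifr, the receptor of leukaemia inhibitory factor, measured 7.32, 7.62 and 7.56 against 9.92, 10.13 and 9.98. Stat3 was higher (0.90 ± 0.10), Stat4 and Stat5a were lower (-1.92 and -1.23), and the inhibitor Socs6 was higher with 9.90, 10.04 and 10.10 against 7.41, 7.27 and 7.27. Other probe sets of Socs6 gave 3.79 and, where dim, 0.16.

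Calcium genes gave 24 of 45 lower in oocytes and 5 higher (median -0.67). Camk2d, a calmodulin kinase, measured 7.03, 7.23 and 7.06 against 9.25, 9.60 and 9.32, and the phospholipase Plcb3 7.72, 7.86 and 7.78 against 9.97, 10.07 and 9.80. Genes that refill the store were divided. Atp2a2, a pump of the endoplasmic reticulum, measured 11.31, 11.31 and 11.38 against 9.90, 9.95 and 9.88, whereas its relative Atp2a3 was lower (-0.60 ± 0.09) and Atp2a1 was not called (-0.39). The store sensors Stim1 and Stim2 were higher (0.61 and 0.76), the latter not with loess scaling (0.55), and the channels Orai1 and Orai2 were not called (-0.29 and -0.37). In the cyclic AMP arm 15 of 41 genes were lower and 8 higher. Prkacb, a catalytic subunit of protein kinase A, was higher (1.87 ± 0.10). Pde3a, the phosphodiesterase of the grown oocyte, was not called (-0.46 ± 0.11), and Gpr3, the receptor that keeps grown oocytes arrested, was not either (-0.04 ± 0.11).

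Families with called members in opposite directions occurred in every category. Among 62 families of closely related proteins in the lists, written down after the values were seen, 28 had called members in opposite directions, 78 genes in all. Their signs were the same for 78 genes in each of the exposed contrasts. They were also the same with loess scaling and with centred arrays, which only rescale the same arrays and can hardly turn a called gene. With 19.2% and 19.3% of all genes called, a family of several members can hold both directions without being special, and nothing is read from the count.

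**Figure D5:**
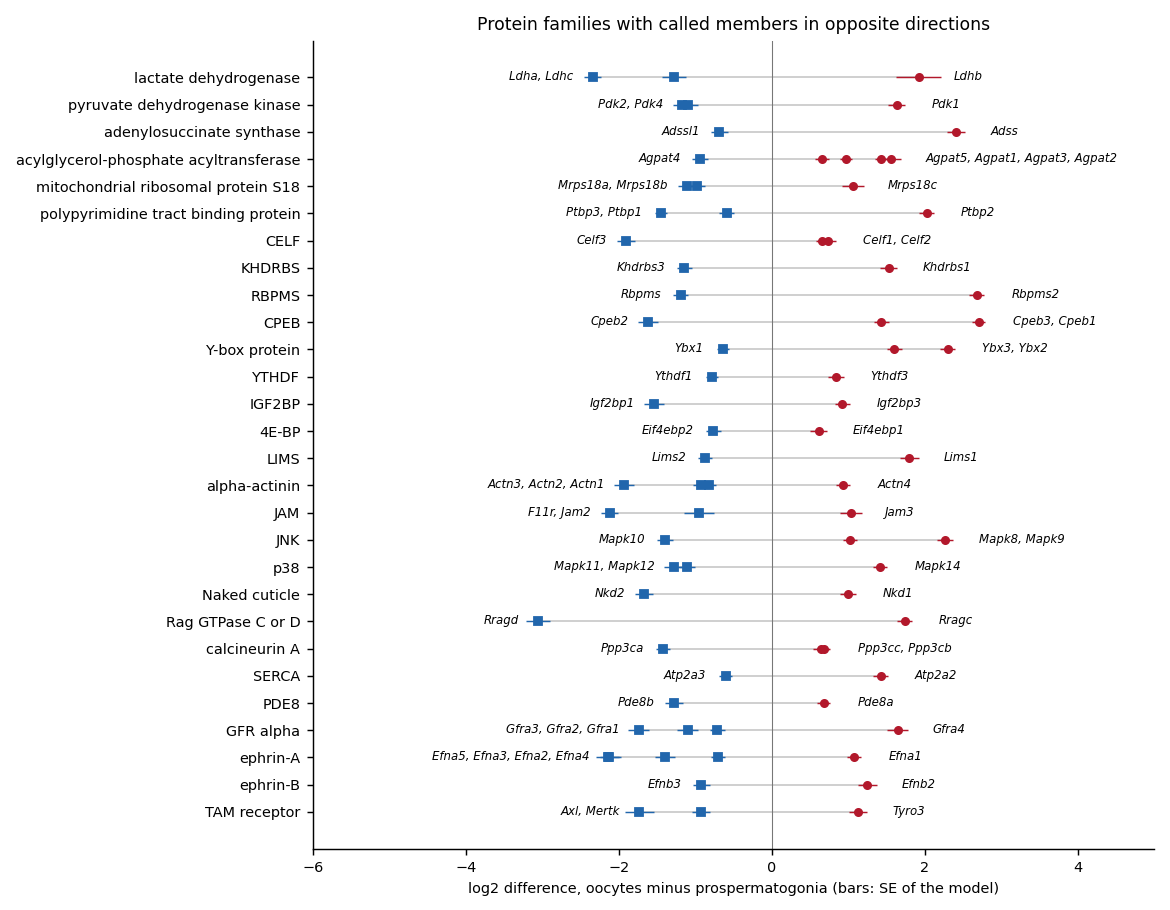
Log2 differences of the called members of the 28 families with calls in opposite directions, with the SE of the model as horizontal bars; red circles were higher in oocytes and blue squares in prospermatogonia. Rragc and Rragd (1.73 and -3.06), Cpeb1 and Cpeb2 (2.70 and -1.62) and Ldhb and Ldha (1.92 and -2.34) lie among the furthest apart.

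Exposed fetuses of the same age gave the comparison again in other arrays. Females and males were compared after 0.2 mg/kg of bisphenol A (BPA, 3 and 3 arrays), 750 mg/kg of di-(2-ethylhexyl) phthalate (DEHP, 2 and 3 arrays) and 100 mg/kg of vinclozolin (VZ, 3 and 3 arrays) per day. Of the 791 list members called in the controls, 730, 700 and 703 were called in the same direction there and 0 in the opposite one. Of all autosomal genes, 19.1% were called higher in oocytes and 19.8% lower in BPA, 19.8% and 20% in DEHP, and 19.1% and 19.8% in VZ. Suclg2 differed by 2.63, 2.88 and 2.77 in BPA, DEHP and VZ, Slc2a3 by -3.55, -3.62 and -3.61, Cpeb1 by 2.76, 2.62 and 2.69, and Met by -3.98, -4.01 and -3.91. For 0 autosomal genes did the sex difference depend on an exposure at an adjusted p under 0.05 in limma's interaction term, with 849, 1578 and 1245 genes at an unadjusted p under 0.05.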

How the data were processed

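RNA of sorted germ cells was hybridised to Mouse Gene 1.0 ST arrays, and the authors deposited log2 signals per probe set, made with RMA in Partek per the submitters' processing notes. Background and quantile steps of RMA were therefore fixed before this re-analysis. All 32 arrays and 35556 probe sets were fitted in limma 3.58.1 (R 4.3.3) with 11 group means, and p-values were adjusted by Benjamini-Hochberg over all probe sets. Of these, 21789 had a single gene, 1621 several and 12146 none listed. A gene was read from its single-gene probe set of highest mean over all arrays. The chromosome was that of the gene. Where the probe set itself lies was not checked, so it may read a copy elsewhere, also on the X or Y. Genes of the X and Y chromosomes (748) and 84 without a chromosome in the reference were left out. The 31 lists held 1691 written names, of which 1558 were measured on autosomes and 100 had no probe set of their own. Members and lists were chosen with earlier results of these data known. Named genes were the 2 highest and 2 lowest called members of each role without overlap between groups, and alternative forms called in opposite directions. Others were chosen after their values were seen. On simulated data the adjusted p threshold, without the fold threshold, found 51% of 1.5-fold and 87% of 2-fold changes, with 6 false calls. Far fewer genes were changed there than in the real data, so these shares do not carry over to the calls. Tables and figures were made with Python 3.11.15.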

Additional observations from a re-analysis of the deposited data

How the results depend on the processing

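None of the 216 named genes reversed under the alternatives run. The calls, 3663 higher in oocytes and 3692 higher in prospermatogonia, became 5868 and 6291 with any fold and 1986 and 1873 with at least 2-fold. They were 3658 and 3698 with the 6 control arrays alone, 3661 and 3690 without moderation of the variance, 3411 and 3233 after leaving out dim probe sets, 3666 and 3649 with the mean of a gene's probe sets, and 3670 and 3595 with array weights. Cyclic loess gave 3056 and 3854, and centred arrays, an alternative chosen after seeing the data, 4627 and 2886. Leaving out 1 array at a time gave 3612 to 3763 and 3579 to 3814. Loess left 12 named genes uncalled, centring 3, the 2-fold limit 42, the probe set mean 2 and leaving out an array 1 to 4. Loess turned the medians of splicing regulators, translation factors and insulin and mTOR genes to -0.06, -0.04 and -0.05, and centring those of activin and JAK-STAT genes to 0.05 and 0.07. Of the 62 counts of list members by direction, 8 moved over 1.5 times with loess, 5 with centring, 23 with any fold, 52 with 2-fold and 0 to 2 on leaving out an array. With loess these included the spliceosome, 13 and 13 in place of 27 and 8, and the splicing regulators, 11 in place of 21 higher. Centring gave 16 in place of 10 Wnt and 10 in place of 5 activin genes higher, and 4 in place of 7 glucose and monocarboxylate carriers lower. The counts that moved on leaving out an array were glucose and monocarboxylate carriers and immunoglobulin-like proteins higher in oocytes, each 2 with all arrays and 0 or 1 without it. The cause was not tested. Replicate numbers are only numbers here, as same-numbered arrays deviated with correlations of -0.059, -0.083 and -0.067, and the replicate block gave 3663 and 3691. With 3 arrays a group, precision is limited by their number, and genes near background have only a compressed difference.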
